A study of Mus musculus with 2 samples.

Results

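RGS genes encode the regulators of G-protein signalling. They were examined here in ATDC5 cells, a mouse chondrogenic line derived from a teratocarcinoma, after a short exposure to the secreted protein Nell-1. The members are 10 genes taken by name, Rgs2, Rgs3, Rgs4, Rgs5, Rgs10, Rgs12, Rgs14, Rgs16, Rgs17 and Rgs19. The list was put together with the log2 ratios of these 2 arrays in view, so its members count as selected on those ratios. They were read by 27 of the 45037 non-control probe sets on the array, each annotated with exactly 1 gene symbol, and they are 10 of 18193 genes so annotated. No probe set with several symbols named a member. The values below therefore describe the genes and test nothing.

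The data are 2 Affymetrix mouse arrays, 1 for each group and without replicates. Both cultures were serum-starved and both were exposed for 30 min to 10 µg/ml of cycloheximide (CHX), which stops translation. The CHX+PBS culture was then given the vehicle PBS for 30 min, and the CHX+Nell-1 culture recombinant human Nell-1 at 100 ng/ml for 30 min. The stated purpose was to screen for primary response genes, those that respond without newly made protein. Because both groups carry CHX, no value here describes cells with intact protein synthesis.

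A receptor coupled to a G protein switches on the alpha subunit by letting it bind GTP. RGS proteins bind the active alpha subunit and speed up GTP hydrolysis, which ends the signal of the alpha subunit and of the beta-gamma dimer. Most act on the Gi and Gq classes, and several of their transcripts are short-lived and respond quickly to hormones that raise cAMP or calcium. In skeletal cells Rgs2 is known as an early transcript of the response to parathyroid hormone.

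Rgs2 was higher with Nell-1 on every probe set and Rgs16 was lower on every probe set. No other member passed 1.5-fold on a probe set with mean signal at or above the median of all probe sets. A ratio is the Nell-1 signal over the PBS signal, given as log2, and 1.5-fold (0.58 on that scale) is the filter the submitters state. With each gene represented by its probe set of highest mean signal, 1 of 10 genes was higher by at least 1.5-fold, 3 were lower by that much and 6 were neither. Over all 18193 genes, 13.1% were at least 1.5-fold higher and 19.0% at least 1.5-fold lower. Of the 3 lower genes, only Rgs16 had a mean signal at or above 64.3, the median of all probe sets. Rgs5 and Rgs17 lay below it, where 66.7% of all probe sets differ by 1.5-fold one way or the other. For the 8 members at or above that median, 1 was higher, 1 was lower and 6 were neither, beside 4.56% higher and 7.53% lower among 11600 genes. The median log2 ratio was -0.06 over the 10 members and -0.06 over all genes.

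**Figure D1:**
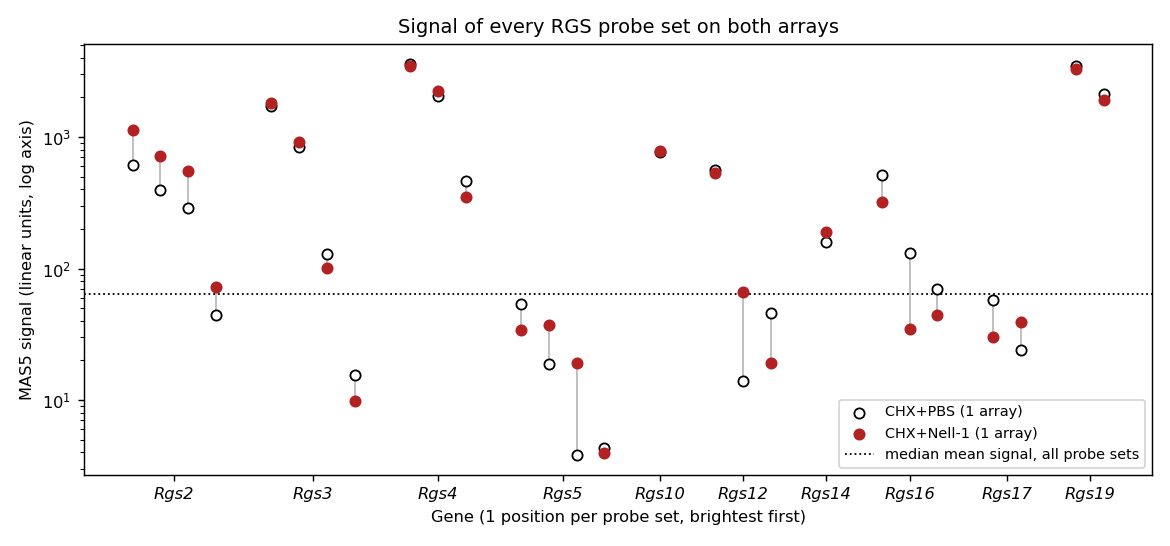
MAS5 signal of each of the 27 probe sets of the 10 genes on the CHX+PBS array (open circles) and the CHX+Nell-1 array (red circles), on a log axis, with a grey line joining the arrays. The dotted line is the median mean signal of all probe sets, 64.3. All 4 Rgs2 probe sets have the red circle on top, all 3 Rgs16 probe sets have it below, and those of Rgs5 and Rgs17 lie near or under the dotted line.

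Rgs2 encodes a small RGS protein of the R4 subfamily that acts mainly on Gq alpha subunits and also restrains adenylyl cyclase. Its brightest probe set, 1419248_at, read 614 with PBS and 1140.3 with Nell-1, which is 1.86-fold higher. The second, 1419247_at, measured 392 and 715, 1.82-fold higher. The third, 1447830_s_at, measured 287 and 553, 1.92-fold higher. These 3 probe sets gave log2 ratios of 0.89, 0.87 and 0.94, close to each other. The fourth, 1443250_at, was dim, at 44.1 with PBS, and gave 72.5 with Nell-1, so it was 1.64-fold higher. All 4 were thus at least 1.5-fold higher, as were all probe sets of 0.274% of the 1093 genes with 4 of them. The probe sets read the same 2 RNA samples, so they do not stand in for separate cultures. At the signal of the brightest Rgs2 probe set 5.0% of all probe sets differed by 1.5-fold or more, and the log2 ratios had a robust SD of 0.28. At the signal of the dim one these were 53.8% and 0.93.

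Rgs16, another R4 protein, acts on Gi and Gq alpha subunits and is known as an inducible transcript in many cell types. Probe set 1455265_a_at read 514 with PBS, against 321 with Nell-1, and was 1.60-fold lower. Probe set 1426037_a_at measured 131 and 34.5, 3.79-fold lower. Probe set 1451452_a_at measured 69.3 and 44.0, 1.58-fold lower. The direction was shared by all 3, but the sizes were not, with log2 ratios of -0.68, -1.92 and -0.66. Of 2366 genes with 3 probe sets, 1.73% had all of them at least 1.5-fold lower. The brightest probe set lies beyond the robust SD of 0.33 at its signal, and the third lies inside the robust SD of 0.93 at its own. With other scalings the dimmest one was at -0.52 with a loess trend removed and -0.50 after quantile normalization, short of 1.5-fold. All 3 Rgs16 probe sets are of the type that can be shared between transcripts of a gene. RNA controls were also lower on the Nell-1 array. All 24 probe sets for the poly-A RNAs added before labelling were lower, with a median log2 ratio of -0.49, and all 18 for the hybridisation controls, with a median of -0.18. Their part in the Rgs16 and Rgs2 ratios was not tested.

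**Figure D2:**
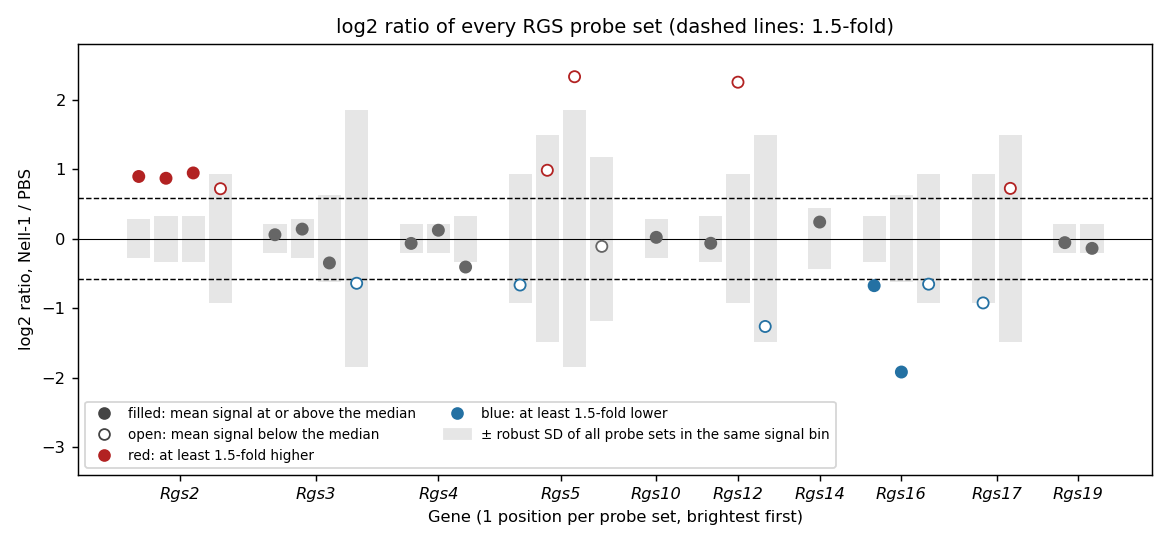
log2 ratio of Nell-1 over PBS for each RGS probe set, brightest first within a gene. Filled points have a mean signal at or above the median and open points lie below it, red and blue mark at least 1.5-fold higher and lower, dashed lines mark 1.5-fold, and grey bars give ± the robust SD of all probe sets at that signal. The 3 filled Rgs2 points at 0.87 to 0.94 and the 2 filled Rgs16 points at -0.68 and -1.92 lie beyond their grey bars and the dashed lines, and no other filled point crosses a dashed line.

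The promoters of Rgs2 and Rgs16, the members whose probe sets all passed 1.5-fold one way, are shown with that of Rgs4. Rgs4 is a member on the same chromosome, and none of its probe sets passed 1.5-fold. Each run is the 250 bases before the annotated start, 5′ to 3′ on the gene's own strand, from RefSeq on GRCm38.p6. Capitals mark TGACG, the core of the cAMP response element, and CCAAT, or their reverse complements CGTCA and ATTGG. The Rgs2 window is chr1:144004150-144004399 on the minus strand, the Rgs16 window chr1:153740103-153740352 on the plus strand and the Rgs4 window chr1:169747643-169747892 on the minus strand.
Rgs2: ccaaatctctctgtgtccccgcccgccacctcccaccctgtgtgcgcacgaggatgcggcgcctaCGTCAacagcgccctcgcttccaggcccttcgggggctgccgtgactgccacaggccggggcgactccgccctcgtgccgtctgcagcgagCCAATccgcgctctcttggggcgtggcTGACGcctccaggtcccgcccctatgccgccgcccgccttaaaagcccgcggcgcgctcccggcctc
Rgs16: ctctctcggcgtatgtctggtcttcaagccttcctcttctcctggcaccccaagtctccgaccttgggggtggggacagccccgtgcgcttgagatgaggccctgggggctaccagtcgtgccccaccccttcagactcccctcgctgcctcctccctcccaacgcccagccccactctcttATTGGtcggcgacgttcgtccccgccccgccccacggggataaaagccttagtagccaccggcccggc
Rgs4: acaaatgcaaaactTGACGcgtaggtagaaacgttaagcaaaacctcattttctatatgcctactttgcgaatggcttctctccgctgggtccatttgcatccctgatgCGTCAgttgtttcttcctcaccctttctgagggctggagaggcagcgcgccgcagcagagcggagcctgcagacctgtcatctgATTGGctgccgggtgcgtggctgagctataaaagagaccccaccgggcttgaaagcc

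The Rgs2 window held TGACG at 2 places, 185 bases before the start on the reverse strand and 67 bases before it on the forward strand. The Rgs4 window also held 2, at 236 and 141 bases. The Rgs16 window held none. A CCAAT letter run lay 94, 68 and 57 bases before the start of Rgs2, Rgs16 and Rgs4. Windows were found for 9 of the members, 13 windows in all since some have several starts, and TGACG on either strand was in 3 of the 13 and in 17.8% of 32851 windows of all genes. CCAAT was in 4 of 13 and in 33.8% of all. The full element TGACGTCA, which contains TGACG on both strands, was in 0 of 13 and in 1.55% of all. The AP-1 letters TGACTCA were in 2 of 13, in windows of Rgs12 and Rgs17, and in 4.46% of all. The EGR letters GCGTGGGCG were in 0 of 13 and in 0.536% of all. The GC box GGGCGG was in 9 of 13 and in 32.7% of all. The member windows had a median GC content of 64.8%, against 52.4% over all windows. A letter match describes the sequence and shows no binding.

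The other members of the R4 subfamily were Rgs4, Rgs3 and Rgs5. Rgs4, which acts on Gi and Gq and is best known from brain and heart, was bright and did not pass 1.5-fold on any probe set. Its probe sets measured 3619 with PBS and 3447 with Nell-1, then 2068 and 2246, then 462 and 348. The log2 ratios were -0.07, 0.12 and -0.41, and the dimmest of the 3 was the farthest from 0, 1.33-fold lower and short of 1.5-fold. That -0.41 lay beyond the robust SD of 0.33 at its signal.

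Rgs3 is a larger relative with several protein isoforms. Its 2 brighter probe sets were nearly level, at 1735 with PBS and 1802 with Nell-1, and at 836 and 919. The third measured 128 and 100.3, a log2 ratio of -0.35. The fourth was close to the bottom of the range at 15.5 and 9.89, and its ratio of -0.64 lay just past 1.5-fold. In that range of signal 72.8% of all probe sets pass 1.5-fold.

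Rgs5, a marker of pericytes, was below the median signal on all 4 of its probe sets. They measured 54.0 with PBS and 34.0 with Nell-1, then 18.9 and 37.3, then 3.80 and 19.1, then 4.28 and 3.96. They disagreed in direction, with 2 higher by at least 1.5-fold, 1 lower by that much and 1 neither. No direction is therefore given for Rgs5. Among pericyte and smooth muscle markers, 5 of 9 lay above the median signal, and they differed among themselves. Des, a muscle intermediate filament gene (224 with PBS and 91.7 with Nell-1), and Notch3, a receptor of mural cells (117 and 58.4), were lower by at least 1.5-fold. Pdgfrb (11368 and 9958), Acta2 (29148 and 26008) and Cspg4 (1063 and 1475) were neither. Kcnj8 and Abcc9, the subunits of a potassium channel typical of pericytes, lay below it at 14.5 and 4.17 and at 13.0 and 4.40. Myh11 (74.4 with PBS and 11.9 with Nell-1) and Mcam (10.1 and 61.7) were also below it, and Mcam went the other way.

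The R12 subfamily, Rgs10, Rgs12 and Rgs14, acts on Gi-class alpha subunits. Rgs12 and Rgs14 are scaffolds that also bind Ras proteins and hold a GoLoco motif, which binds the inactive alpha subunit. Rgs10, the short member, measured 772 with PBS and 781 with Nell-1 on its 1 probe set, a log2 ratio of 0.02. Rgs14 measured 159.7 and 188 on its 1 probe set, at 0.24. Neither difference exceeded the robust SD at its signal, 0.28 and 0.43. Rgs12 measured 558 and 532 on its brightest probe set, at -0.07. Its dim probe sets went opposite ways, from 13.9 to 66.0 on the second and from 45.9 to 19.1 on the third. Of genes with 3 probe sets, 15.8% likewise had some at least 1.5-fold higher and others at least 1.5-fold lower.

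The RZ subfamily, named for its action on the Gz alpha subunit, was represented by Rgs17 and Rgs19. Rgs19, which also acts on Gi, was bright and nearly level. Its probe sets measured 3451 with PBS and 3313 with Nell-1, and 2123 and 1925, with log2 ratios of -0.06 and -0.14. Rgs17 was below the median signal on both of its probe sets. The brighter measured 57.3 and 30.1, 1.90-fold lower, and the other 23.9 and 39.4, 1.65-fold higher. These 2 disagree, so no direction is given for Rgs17 either.

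**Figure D3:**
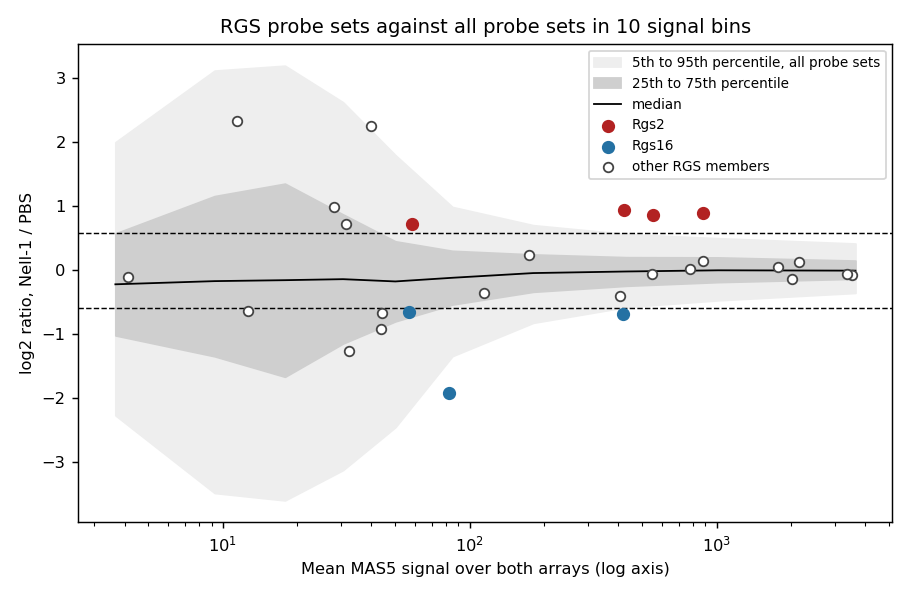
log2 ratio of Nell-1 over PBS against mean signal (log axis) for the 27 RGS probe sets. Shaded bands give the 5th to 95th and 25th to 75th percentiles of all 45037 probe sets in 10 signal bins, the black line their median, and dashed lines 1.5-fold. The bands narrow as signal grows, the 3 brighter Rgs2 probe sets and 2 of the Rgs16 ones lie at or beyond the edge of the wide band, and the dim ones lie inside it except the second Rgs12 probe set at 2.25, beyond the 95th percentile of 1.79 in its bin.

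Counted by probe set, 8 of the 27 were higher by at least 1.5-fold and 7 lower by that much, beside 17.5% and 23.1% of all probe sets. Most of these were dim. Of the 11 below the median signal, 5 were higher, 5 lower and 1 neither, beside 29.1% and 37.6% of all dim probe sets. Of the 16 at or above it, 3 were higher, all of Rgs2, and 2 were lower, both of Rgs16. The shares over all probe sets in that range were 5.97% and 8.48%. At a 2-fold threshold no gene passed on its brightest probe set, beside 8.0% of all genes higher and 11.8% lower. The Rgs16 probe set 1426037_a_at was the only one of the 16 brighter probe sets past 2-fold, beside 4.04% of all probe sets in that range either way.

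Of the other genes with an Rgs symbol, most were dim. Of 11 listed, 9 were measured and 3 reached the median signal. Rgs20, another RZ member, was 1.50-fold lower (88.8 with PBS and 59.0 with Nell-1), at -0.59 just past the threshold on its brightest probe set. Of its 3 probe sets 2 were lower and 1 higher by at least 1.5-fold. Rgs9 (177 and 219) and Rgs11 (78.3 and 104), of the R7 subfamily that pairs with Gnb5, were at 0.31 and 0.41 and reached neither side. Rgs1, Rgs6, Rgs7, Rgs8, Rgs13 and Rgs18 lay below the median signal, with no signal above 34.4 on the probe sets that represent them.

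Genes related to G-protein signalling were next examined, each gene by its brightest probe set. They form 9 lists, which include the other Rgs genes and genes that respond to cAMP. In these lists 79 of 108 measured genes reached the median signal. Of the 79, 1 was higher by at least 1.5-fold, 12 were lower by that much and 66 were neither. These are 1.27% higher and 15.2% lower, beside 4.56% and 7.53% of all such genes. Of the 12 lower genes, 4 were from the cAMP-responsive list and 1 was Rgs20. The lists were chosen with earlier results of these data known.

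Among 11 G-protein alpha subunit genes above the median signal, 9 were neither. Gnas, the stimulatory subunit, measured 18704 with PBS and 16483 with Nell-1 on its brightest probe set. Of its 5 probe sets, 3 were at least 1.5-fold higher and 1 lower. Only 1 of these, a higher one, was above the median signal. Gnai2, an inhibitory subunit, measured 11943 and 9851. Gna12 was at -0.13 on its brightest probe set, with 2 of 3 above the median signal lower by 1.5-fold or more. Gnaq, the partner of Rgs2, was at -0.05 (1617 and 1558), with none of its 7 probe sets past 1.5-fold. Gnao1 was 2.19-fold lower (461 and 210.0), on 1 of its 2 probe sets above the median. Of its 3 probe sets, the 1 below the median was at least 1.5-fold higher. Gnal, the olfactory relative of Gnas, was 1.63-fold higher (63.2 and 103) on its brightest of 3 probe sets, with another at least 1.5-fold lower. Of 13 beta and gamma subunit genes, 10 were neither. The gamma subunits Gng4 (435 and 175), Gng7 (216 and 122) and Gng8 (132 and 74.8) were lower, Gng4 on 1 of 3 probe sets. Gnb2 (10983 and 10687) differed little.

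Proteins that carry an RGS-homology domain under other names showed no ratio past 1.5-fold on the brightest probe set in 9 of 9. Akap10 and Arhgef12 each had another probe set above the median signal that was at least 1.5-fold higher. The nearest was Axin1, a scaffold of the beta-catenin destruction complex, at -0.57 (1459 and 986). None of 6 GoLoco and Ric8 regulators passed 1.5-fold on its brightest probe set. Of 4 receptor kinases and beta-arrestins, Grk4 was lower (87.5 and 52.3) and 3 were neither, among them Grk6 (-0.35) and Arrb2 (-0.25). Of 9 adenylyl cyclases and beta-type phospholipases C, which are the enzymes downstream, 7 were neither on the brightest probe set. Among the 7, other probe sets of Plcb1, Adcy3 and Plcb4 passed 1.5-fold. Plcb1 had 4 of 5 probe sets lower, 2 of them above the median signal. Adcy3 had 2 of 4 lower, 1 of them above it. Plcb4 had 3 of 5 higher and 1 lower, none of them above it. Adcy1 was lower (220.1 and 131), and so was Adcy9 (401 and 256) on its brightest probe set. Another of the Adcy9 probe sets was at least 1.5-fold higher.

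Receptors of skeletal and mesenchymal cells did not pass 1.5-fold on the brightest probe set in any of 13 above the median signal, with a median log2 ratio of -0.19. Lpar4, a receptor for lysophosphatidic acid, had 1 of 3 probe sets lower by that much. Pth1r, the parathyroid hormone receptor, measured 1009 with PBS and 908 with Nell-1, and F2r, a thrombin receptor, 2867 and 2747. Of 11 genes known to respond to cAMP and measured above the median signal, 0 were higher by 1.5-fold or more, 4 were lower by that much and 7 lay between. Over all genes above that median 4.56% were higher and 7.53% lower. Among the 7, Nr4a2 and Pde4b had other probe sets past 1.5-fold both ways, those of Pde4b being dim. Of 4 Nr4a2 probe sets above the median signal, 1 was higher and 1 lower. Sik1, a kinase that feeds back on cAMP signalling, was 2.14-fold lower (165 and 77.3), and Fos, Nr4a3 and Dusp1 were also lower, at -1.03, -1.07 and -1.10. Ptgs2, the inducible cyclooxygenase, was at 0.06 (1225 and 1279), and Crem, a cAMP-responsive repressor, at -0.06. Of 4 Crem probe sets, 1 dim one was at least 1.5-fold lower.

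**Figure D4:**
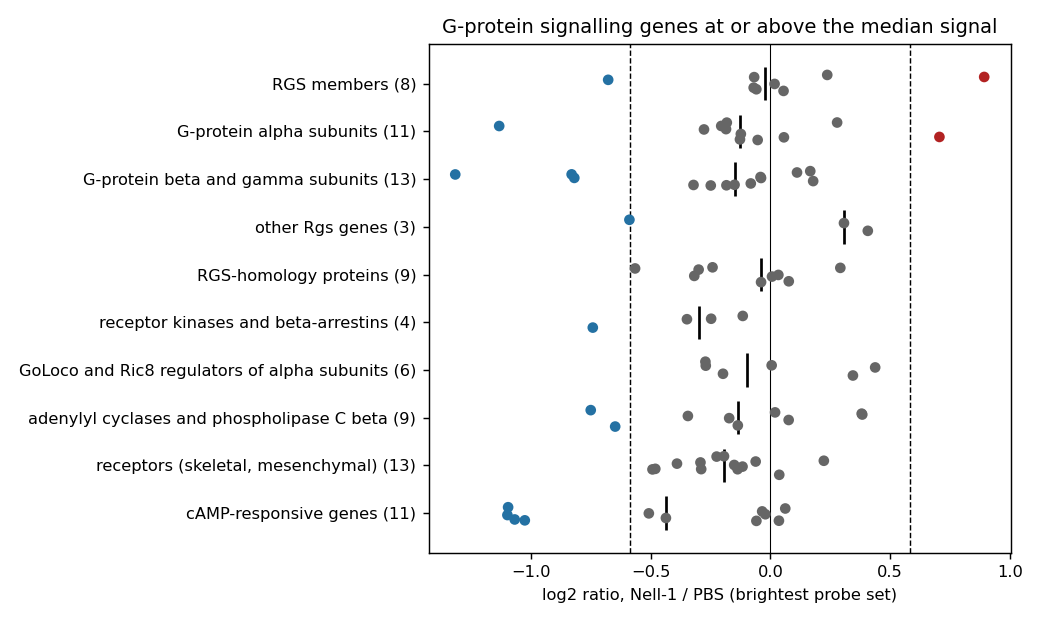
log2 ratio of Nell-1 over PBS on the brightest probe set of each gene with mean signal at or above the median. Rows are the RGS members and 9 lists of genes related to G-protein signalling, with the number of genes in brackets. Black bars are list medians, dashed lines 1.5-fold, and the vertical positions within a list are random. Rgs2 at 0.89 and Gnal at 0.71 are the points past the right dashed line, and the 11 cAMP-responsive genes have a median of -0.44.

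The arrays as a whole and the cell type bear on these values as follows. Median signals were 69.5 with PBS and 62.6 with Nell-1, and both arrays had a 2% trimmed mean of 500.0. Cartilage markers were partly present, with 6 of 11 above the median signal. Sox9 measured 3375 with PBS and 2577 with Nell-1, Col2a1 909 and 1206, and Acan 176 and 293, and Sox6 208 and 338, while Comp, Matn1, Matn3, Col10a1 and Hapln1 lay below the median. Osteoblast markers were present too, with 3 of 4 measured genes above the median signal and none of the 3 past 1.5-fold. These were Col1a1 (21720 with PBS and 18359 with Nell-1), Alpl (2706 and 3959) and Sp7 (894 and 1219). Of other cell types known for RGS transcripts, 0 of 6 endothelial, 3 of 7 haematopoietic and 3 of 7 neural markers reached the median signal. Among these 6 genes Cd52 (-0.63) and Syt1 (-0.75) were lower and Tubb3 (0.59) higher by at least 1.5-fold. None of 9 reference genes passed 1.5-fold, with a median of 0.01. These are bulk RNA samples, in which fewer cells of a type and less RNA per cell cannot be told apart.

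The ratios of several members depended on the processing, while Rgs2 and Rgs16 kept their signs. Over the deposited signals and 8 alternatives the log2 ratio of Rgs2 ran from 0.86 to 0.95. Over the deposited signals and 7 alternatives that of Rgs16 ran from -1.09 to -0.62. The mean over all of its probe sets gave the -1.09. All probe sets of each of these genes had the same sign, so no choice or mean of them could take either gene across 0. Median centring only took the median of all probe sets, -0.06, off every ratio. Some alternatives could not move these genes at all. The floor value and the signal filter left Rgs2 at 0.89 and Rgs16 at -0.68. The unshared choice, which drops probe sets with names ending in _a_at, _s_at or _x_at, kept the same Rgs2 probe set. Rgs5 was at -0.67 on its brightest probe set, 0.63 as a mean over its probe sets and 0.98 on its brightest unshared probe set. The probe set at -0.67, 1420940_x_at, is one that the unshared choice drops.

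**Figure D5:**
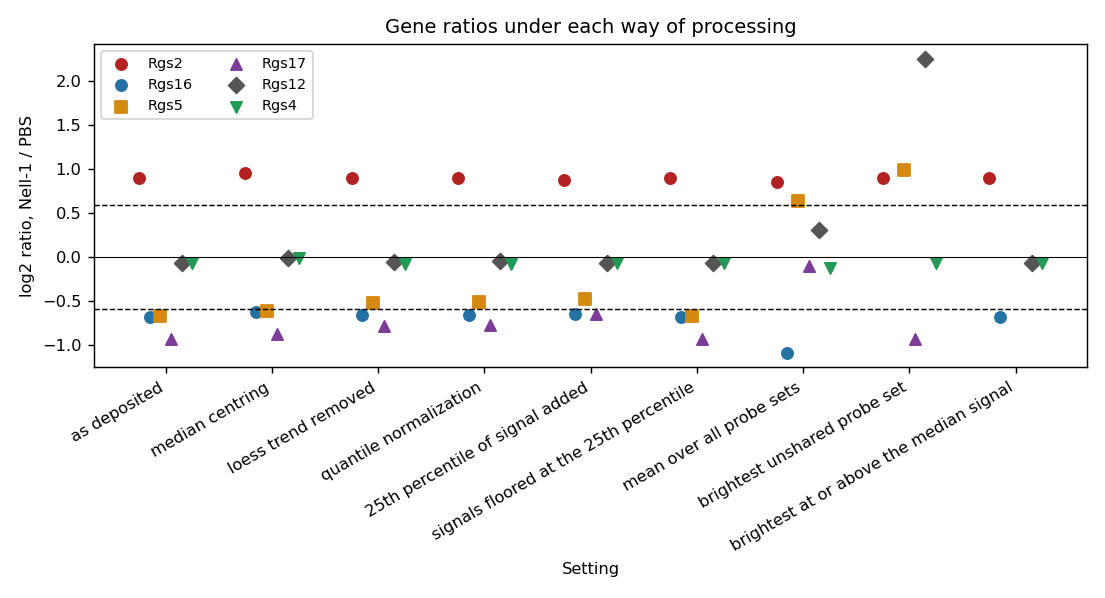
log2 ratio of Nell-1 over PBS for 6 RGS genes with signals as deposited and under 8 alternatives, side by side within each setting; a gene with no probe set that meets a setting has no point. Dashed lines mark 1.5-fold. Rgs2 stays between 0.86 and 0.95 and Rgs16 between -1.09 and -0.62, while Rgs5 and Rgs12 change sides with the probe set used.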

How the data were processed

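Total RNA of 2 cultures was hybridised to Affymetrix mouse expression arrays. The authors deposited intensities, linear MAS5 signals per probe set, and MAS5 and Affymetrix Expression Console are named in the submitters' processing notes. No version is given in those notes. MAS5 scales each array by 1 factor and leaves dim signals unstable. Detection calls were not used here.

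Of 45101 probe sets, 64 controls were kept apart. Symbols came from the platform annotation, with 34945 probe sets having 1 symbol, 932 several and 9160 none. All 10 members were found by gene ID in RefSeq (GRCm38.p6).

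The log2 ratio of the deposited signals was computed with Python 3.11.15 and pandas 2.3.3. The robust SD comes from the median absolute deviation in 10 equal bins of mean signal, and it mixes noise with real differences. With 1 array per group no test was possible, and the number of arrays limits the precision. Alternatives were 3 rescalings, an added or floor value of 17.9 (the 25th percentile of signal), other probe set choices, a signal filter and a 2-fold threshold. The code was tested on simulated data.

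Members and lists were chosen with earlier results of these data known. Named genes are all members, up to 4 genes past 1.5-fold above the median signal in each pathway list, and otherwise a list's brightest. Others named are Gnai2, Gnaq, Gna12, Gnb2, Axin1, Akap10, Arhgef12, Lpar4, Grk6, Arrb2, Pth1r, Crem, Nr4a2, Pde4b, Adcy3, Plcb1 and Plcb4. Dim genes and cell type markers are also named. These others were chosen after their values were seen.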

Additional observations from a re-analysis of the deposited data

How the results depend on the processing

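As deposited, 3 RGS genes were at least 1.5-fold lower and 1 higher, with a median log2 ratio of -0.06. Over all genes 19.0% were lower and 13.1% higher, with a median of -0.06. With the mean over all probe sets the counts were 1 lower and 2 higher, beside 21.0% and 14.4% of all genes, and Rgs5 reversed to 0.63. With the brightest unshared probe set, which 6 genes have, the counts were 1 lower and 3 higher, the median was 0.46 and Rgs5 reversed to 0.98. Over all 16591 genes with such a probe set 20.3% were lower and 14.2% higher, with a median of -0.06. With genes at or above the median signal 1 of 8 was lower and 1 higher, beside 7.53% and 4.56% of all such genes. At 2-fold 0 were lower and 0 higher, beside 11.8% and 8.0% of all genes. Under the 3 rescalings and the added or floor value the counts were 2 or 3 lower and 1 higher. Of all genes, 16.6% to 17.7% were lower and 14.4% to 15.0% higher under the rescalings. With the added or floor value these shares were 12.3% or 12.8% lower and 8.12% or 8.13% higher. The 25th percentile added to both signals left 3 of 4 Rgs2 and 2 of 3 Rgs16 probe sets past 1.5-fold. The causes were not tested beyond the choice of probe set itself. No replicate could be left out, with 1 array in each group. No paired analysis was possible because the groups share only 1 replicate number.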

Other observations

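On mouse chromosome 1 Rgs2 lies in a row with other RGS genes, in the RefSeq gene order of GRCm38.p6. The next genes in that row, Rgs13 and Rgs1, were below the median signal (4.0 with PBS and 0.225 with Nell-1, and 34.4 and 2.39). On the other side lie Uchl5, a deubiquitinase of the proteasome, and Ro60, an RNA-binding protein gene. They measured 1168 and 1506, and 342 and 455, with log2 ratios of 0.37 and 0.41, short of 1.5-fold. Rgs4 and Rgs5 are also adjacent there. Rgs4 was bright at 3619 and 3447, and Rgs5 lay below the median signal at 54.0 and 34.0. Rgs16 lies beside Rgs8, which was below the median signal at 5.64 and 4.71.

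Of 1093 genes with 4 probe sets, 3 had all of them at least 1.5-fold higher with Nell-1. Besides Rgs2 these were Usp24, a deubiquitinase gene, and the non-coding C130071C03Rik, both named after their values were seen. The brightest probe set of Usp24 measured 308 with PBS and 481 with Nell-1, and its 4 log2 ratios ran from 0.64 to 2.81. C130071C03Rik was below the median signal, at 1.96 and 16.5 on its brightest probe set. The 4 Rgs2 ratios ran from 0.72 to 0.94, and Rgs2 too was chosen with its ratios in view.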
